A study of Mus musculus with 6 samples.

Results

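AII-like glycinergic amacrine nuclei were studied in single-nucleus RNA-seq libraries of the rd10 mouse retina. They were chosen by their own counts: a nucleus with more than 500 unique molecular identifiers (UMIs), at least 200 genes and under 5% mitochondrial UMIs was a member if it held at least 1 UMI of Slc6a9, at least 1 of Gjd2 and at least 1 of Prox1 or C1ql2. A member also held no UMI of Gad1, Gad2, Slc17a6, Slc17a8, Trpm1, Grik1 or Abca8a. The rule found 458 members among 56205 nuclei that passed the cell filters. There were 81, 69 and 98 members in the saline libraries (replicates 1, 2 and 6) and 72, 73 and 65 in the IL-27 libraries (replicates 4, 5 and 10).

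All 6 libraries came from retinas of B6.CXB1-Pde6b-rd10/J mice, whose rods degenerate because of a mutation in the rod phosphodiesterase gene Pde6b, and no wild-type retina was compared here. At P18, 1 eye of each mouse received an intravitreal injection of 20 ng recombinant mouse IL-27 or of phosphate-buffered saline, and the retinas were frozen at P20. Each group had 3 libraries, and whether a library held 1 retina or several is not given in the sources used here. The libraries held 8968 to 9965 barcodes and 36678332 to 48260748 UMIs. Any 2 libraries shared 18 to 30 barcodes among the nuclei kept, and no member shared its barcode with a member of another library. The level of Xist, the RNA of the inactive X chromosome, was high in 1 library of each group (saline replicate 2 and IL-27 replicate 5).

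AII amacrine cells are narrow-field glycinergic interneurons of the rod pathway. They take glutamate input from rod bipolar cells and pass the signal to cone bipolar cells, through gap junctions of connexin 36 (the product of Gjd2) on the ON side and through glycine on the OFF side. Slc6a9 encodes the glycine transporter GlyT1, which glycinergic amacrine cells use to hold glycine, and Prox1 encodes a transcription factor found in these cells.

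Counts of the members were summed per library and given as CPM, in which a gene's UMIs are divided by all UMIs of that library's sum and multiplied by the same constant for every sum. The sums were set beside those of 832 other amacrine nuclei with Slc6a9, which met the same exclusions, held Tfap2a or Tfap2b and were not members, and of 671 GABAergic amacrine nuclei, which held both Gad1 and Gad2 and no Slc6a9. Members did not have to hold Tfap2a or Tfap2b. A further 2267 Slc6a9 nuclei met the exclusions, were not members and lacked both factors, and these were left out. The median depth of the members was 4862.5 to 6060 UMIs over the libraries, against 3923.5 to 4776 in the other Slc6a9 nuclei and 6269 to 7029 in the GABAergic nuclei. Members were thus deeper than the other Slc6a9 nuclei and shallower than the GABAergic nuclei. With the shallow comparison nuclei left out, 945 of the 1274 called genes that were still tested against the other Slc6a9 nuclei kept their call and direction and 3 had the opposite sign.

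The genes of the rule are given as a description. Slc6a9 was at 487 ± 49.6 CPM in the members and 462 ± 27.8 CPM in the other Slc6a9 nuclei (SD, n = 6). Gjd2 was at 302 ± 29.8 and 11.9 ± 3.67 CPM and Prox1 at 997 ± 71.1 and 422 ± 72.5 CPM. Nearly all members entered through Prox1: 441 held Prox1 alone, 6 held C1ql2 alone and 11 held both. C1ql2, a secreted C1q-like synaptic protein, was at 6.32 ± 4.29 CPM in the members, 5.64 ± 2.91 in the other Slc6a9 nuclei and 38.1 ± 8.99 in the GABAergic nuclei, so it did not mark the members. A single UMI of Gjd2 admitted 254 members, 122 held 2 UMIs and 82 held 3 or more.

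The label was checked with genes that the rule did not use. Dab1, the reelin signalling adaptor whose antibody is used to stain AII cells, was at 7316 CPM in the lowest library of the members, 7890 in the median and 8817 in the highest. In the other Slc6a9 nuclei it was at 4107, 4595 and 4944 CPM, and in the GABAergic nuclei at 257, 456 and 605 CPM. All 6 libraries of the members lay above all libraries of both other sets. The log2 fold change (log2FC) was 0.88 ± 0.08 (SE; adjusted p = 1.94e-08, edgeR quasi-likelihood test with the library as block and Benjamini-Hochberg adjustment) over the other Slc6a9 nuclei and 4.20 ± 0.14 (adjusted p = 1.07e-14) over the GABAergic nuclei. Dab1 lies on chromosome 4 at 103619359 to 104744844 (GENCODE M21, GRCm38).

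Nfia, a nuclear factor I transcription factor, was at 1443, 1558 and 1660 CPM in the lowest, median and highest library of the members, and at 608, 813 and 1009 CPM in the other Slc6a9 nuclei. The ranges did not overlap, and Nfia rose by 1.01 ± 0.09 on the log2 scale (adjusted p = 3.22e-08). Dner, a Notch-related transmembrane protein, was at 504, 522 and 536 CPM against 209, 246 and 343 CPM, again without overlap, with a log2FC of 1.07 ± 0.10 (adjusted p = 3.28e-08). Scn1a, the sodium channel NaV1.1 found in AII cells, was at 926, 1029 and 1110 CPM against 343, 500 and 689 CPM, a log2FC of 1.08 ± 0.10 (adjusted p = 2.68e-08).

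These 4 genes (Dab1, Nfia, Dner and Scn1a) were the ones called higher among the 10 tested of the 12 on a list of AII-associated genes, against 7.83% of the 7498 genes tested called higher and 10.3% called lower. The others gave no such separation. Calb2 (calretinin), a usual stain of AII cells, was at 38.4 ± 14 CPM in the members and 33.8 ± 9.36 in the other Slc6a9 nuclei (SD, n = 6), a log2FC of 0.24 (adjusted p = 0.472). Nfib (log2FC -0.12), Nfix (0.05), the L-type calcium channel Cacna1d (0.07) and the vesicular transporter Slc32a1 (-0.15) did not pass the test. Grin2b, the NMDA receptor subunit GluN2B, was lower, at 62.9 ± 17.8 against 351 ± 63.6 CPM, a log2FC of -2.40 (adjusted p = 1.09e-10). The dopamine receptor Drd1 (4.61 against 20.6 CPM) and the connexin 45 gene Gjc1 (17.4 against 10.7 CPM) were too low to be tested against these nuclei. Dab1, Nfia, Dner and Scn1a thus followed the AII label among the amacrine nuclei, and Calb2 and C1ql2 did not separate the members from other glycinergic amacrine nuclei. A list of 10 general amacrine genes had its lowest sum in the members. Its mean sum was 2349 CPM there, 3143 CPM in the other Slc6a9 nuclei and 4800 CPM in the GABAergic nuclei. Against the other Slc6a9 nuclei, 1 of 6 tested was called higher and 2 lower. Against the GABAergic nuclei, 0 of 7 were called higher and 6 lower. Single genes made up much of these sums. Snap25 was the largest in the members (837 CPM) and in the other Slc6a9 nuclei (1435 CPM), and Meis2 in the GABAergic nuclei (1714 CPM). Both comparison sets had to hold Tfap2a or Tfap2b, whereas members did not. How far this bears on the order was not tested.

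**Figure D1:**
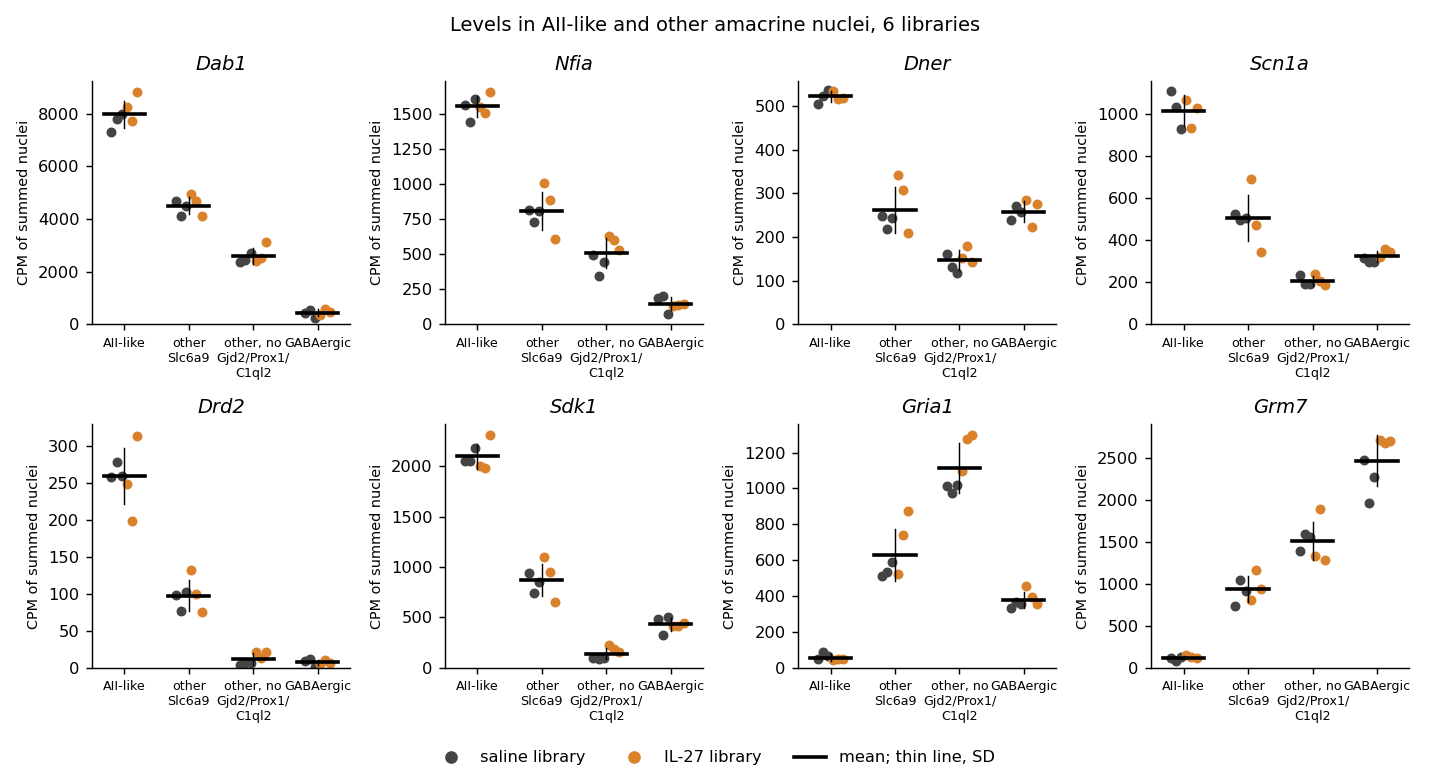
CPM of 8 genes in the nuclei summed per library, for the AII-like members, all other Slc6a9 amacrine nuclei, those of them without Gjd2, Prox1 and C1ql2, and GABAergic nuclei; each point is a library (grey, saline; orange, IL-27), the bar is the mean and the line the SD over 6 libraries. Dab1, Nfia, Dner, Scn1a, Drd2 and Sdk1 were highest in the members, where Drd2 was at 259 ± 37.5 CPM against 97.2 ± 20.7 in the other Slc6a9 nuclei, and Gria1 and Grm7 were lowest there, with Gria1 at 56.5 ± 17.1 against 629 ± 147 CPM.

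Shares of nuclei with a UMI gave the same order after each nucleus was thinned to 3000 UMIs, which left 429 members (29 were too shallow), 647 other Slc6a9 nuclei and 640 GABAergic nuclei. Dab1 was then present in 98.6% of members (95% Clopper-Pearson interval 97.0 to 99.5), 87.3% of other Slc6a9 nuclei and 28.3% of GABAergic nuclei. Only the 244 deepest of 1605 rod nuclei could be thinned in the same way, as 1361 were too shallow. In these rods, where Dab1 should be absent, the share was 11.9%. It was 71.2% in thinned rod bipolar nuclei and 76.4% in thinned Muller nuclei, both below the members but well above rods. Unthinned, the shares were 97.2% in the members (median 5238.5 UMIs) and 7.85% in rods (median 1594 UMIs). Nfia was present in 90.2%, 58.3% and 11.7% of the 3 thinned amacrine sets. It was in 11.9% of thinned rods, 25.4% of thinned rod bipolar nuclei and 94.8% of thinned Muller nuclei. Its share in GABAergic nuclei was thus at the level of the deepest rods. Unthinned, Nfia was in 16.1% of GABAergic nuclei and 7.17% of the shallower full set of rods. After thinning, Dner was present in 73.0%, 45.6% and 45.8%, against 7.25% to 8.61% in thinned Muller, rod bipolar and rod nuclei. Calb2 was present in 12.6% of thinned members (interval 9.60 to 16.1), 10.8% of other Slc6a9 nuclei and 7.03% of GABAergic nuclei. Its share was 11.1% in thinned rods (interval 7.42 to 15.7), which overlaps that of the members, and 5.95% and 6.03% in rod bipolar and Muller nuclei, which lie below it. These intervals cover counting error only.

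Members were not uniform. Dab1 ranged from 0 to 229 UMIs per member, with quartiles of 28, 43 and 58, and 13 members had none, of which 11 also had no Nfia. The 204 members with at least 2 UMIs of Gjd2 had 8717 CPM of Dab1 and 1734 CPM of Nfia when pooled, against 7229 and 1397 CPM in the 254 members with 1 UMI. Ebf3, a transcription factor of other glycinergic amacrine types, was at 16.7 CPM in the former and 121 CPM in the latter. It was concentrated in few nuclei: 35 members held at least 2 UMIs of it and 17 held at least 5. The 62 members without Tfap2a and Tfap2b had 4548 CPM of Dab1, 470 CPM of Nfia and 426 CPM of Ebf3, with Ebf3 detected in 43.5% of them, whereas the 396 members with either factor had 8334, 1685 and 30.1 CPM. Members at the edge of the rule therefore carried less Dab1 and Nfia and more Ebf3 than the rest. Subsets of members were formed after their values were seen and were given no test.

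Nuclei just outside the rule were compared in the same way, as a description. Of 1126 nuclei that met the required genes, 668 were dropped for an excluded gene, most often Grik1 (388 nuclei) or Trpm1 (379 nuclei), which mark bipolar cells. The 294 nuclei with a single excluded gene had 5598 CPM of Dab1 and 1228 CPM of Nfia, lower than the members with 1 UMI of Gjd2 but above the 1004 nuclei that missed only Gjd2 (4022 and 537 CPM). The 374 nuclei with 2 or more excluded genes had a median of 12953 UMIs and 1641 CPM of Dab1. Nuclei that missed only Slc6a9 (176) had 2954 CPM of Dab1, and those that missed only Prox1 and C1ql2 (121) had 2474 CPM. Ebf3 was at 476 CPM in the nuclei that missed only Gjd2 and was detected in 44.7% of them, against 9.83% of the members.

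**Figure D2:**
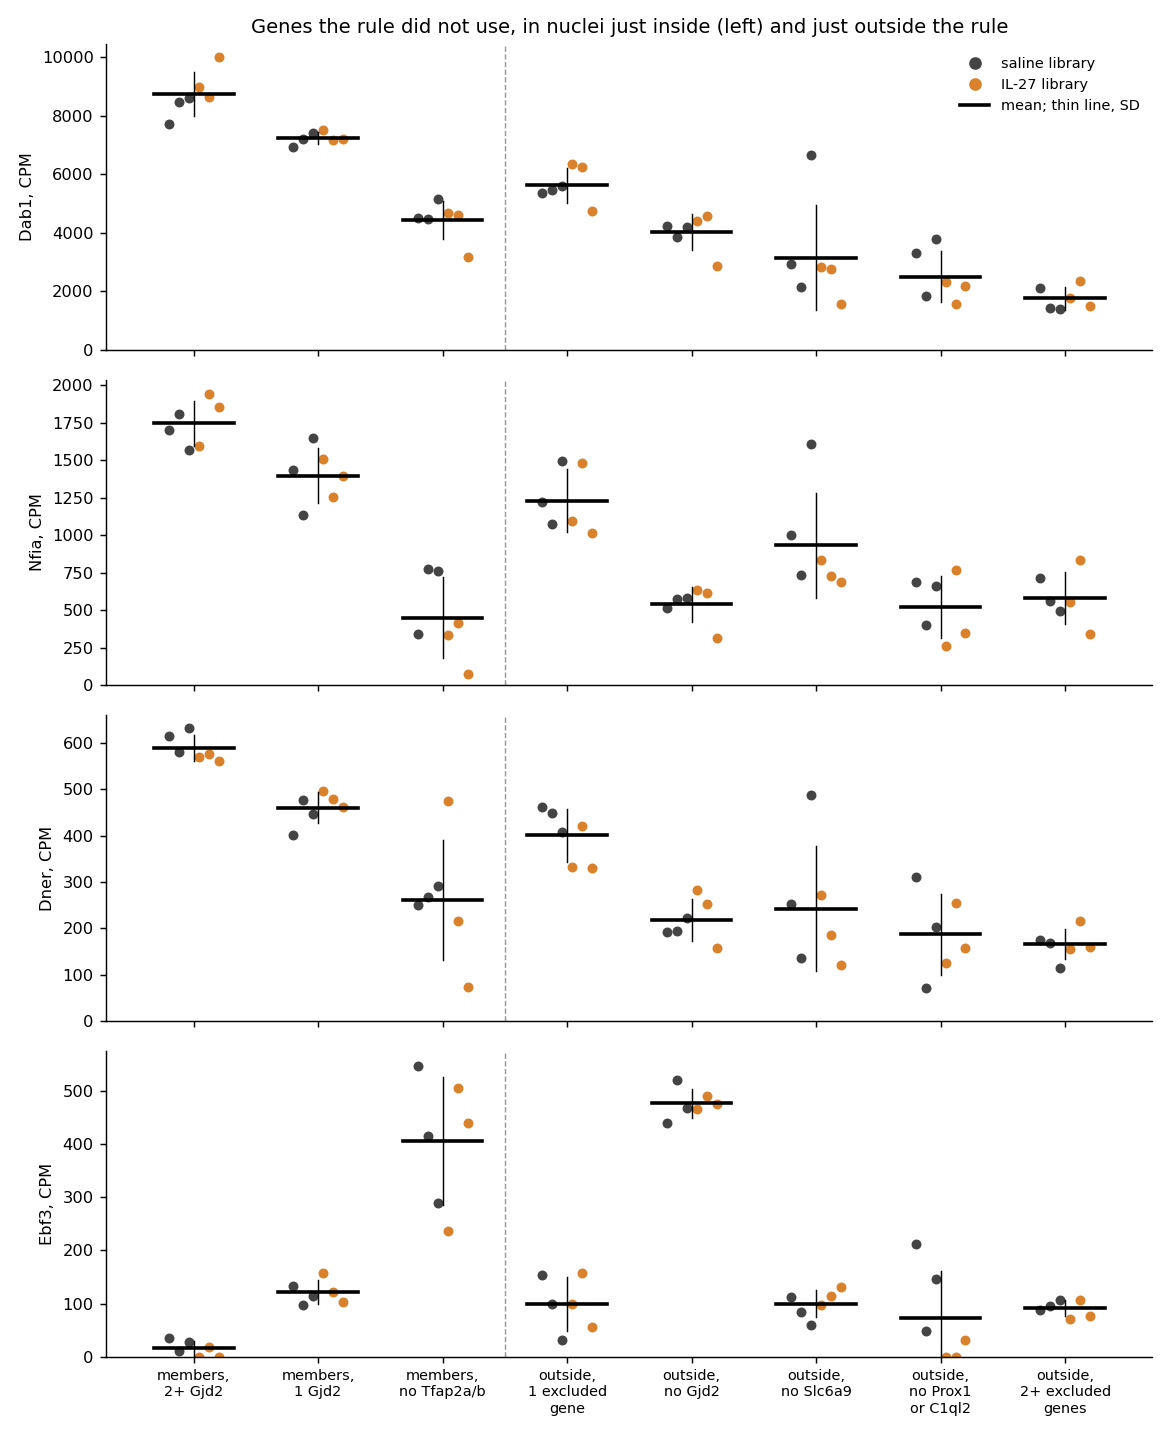
CPM of Dab1, Nfia, Dner and Ebf3, which the rule did not use, in 3 subsets of the members (left of the dashed line) and 5 sets of nuclei just outside the rule; each point is a library (grey, saline; orange, IL-27), the bar is the mean and the line the SD. Dab1 was highest in members with at least 2 UMIs of Gjd2 (8717 CPM pooled), and Ebf3 was highest in nuclei that missed only Gjd2 (476 CPM) and in members without Tfap2a and Tfap2b (426 CPM).

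Markers of other retinal cells were present at low levels in the members. The 12 rod markers summed to 735 to 1238 CPM in the saline libraries and 518 to 950 CPM in the IL-27 libraries, against 1016 to 1847 and 858 to 1599 CPM in the other Slc6a9 nuclei. The 13 bipolar markers summed to 265 to 325 and 191 to 269 CPM, against 717 to 831 and 615 to 869 CPM. Most of that sum was 1 gene, Prkca. Its mean was 158 of 263 CPM in the members and 628 of 766 CPM in the other Slc6a9 nuclei. The GABAergic nuclei also held Prkca, at 536 CPM. Muller markers (10 genes) summed to 215 to 270 and 208 to 272 CPM, cone markers (9 genes) to 126 to 401 and 157 to 216 CPM, and microglia markers (9 genes) to 121 to 149 and 128 to 224 CPM. Horizontal cell markers (6 genes) summed to 346 to 405 and 321 to 415 CPM, against 212 to 495 and 151 to 247 CPM in the other Slc6a9 nuclei, and in the members 5 of the 6 were detected, Calb1 at the highest level. Of the other lists, 8 of 10 ganglion cell, 6 of 7 starburst, 8 of 9 microglia and 5 of 6 vascular markers were detected. Pou4f3, Isl2, Lhx1, Fezf1, Tmem119 and Cdh5 had no UMI in any member, and Isl2, Fezf1, Tmem119 and Cdh5 had none in the other Slc6a9 nuclei either. Rod, cone, Muller and bipolar markers were lower in the members than in the other Slc6a9 nuclei (10 of 12, 3 of 5, 3 of 7 and 1 of 3 tested genes called lower, none higher), and their part in the comparison below was not tested. With the shallow comparison nuclei left out, which left fewer nuclei to compare, 0 rod and 0 cone markers were called. In that setting the glutamate receptor list had 10 genes called lower and 3 higher. Whether marker levels bear on these calls was not tested.

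Against the other Slc6a9 nuclei, 587 of 7498 genes tested were called higher in the members and 775 were called lower. Among those called, the members were above the other nuclei in 6 of 6 libraries for 471 genes and below in 6 of 6 for 625. The increases were small and the decreases large: 93 genes rose by at least 1 on the log2 scale and 0 by at least 2, whereas 387 fell by at least 1 and 122 by at least 2. The other Slc6a9 nuclei still held 422 nuclei with Gjd2, Prox1 or C1ql2, mainly nuclei that lacked a UMI of Gjd2. When only the 410 nuclei without any of these 3 genes were kept, an alternative chosen after the data were seen, 789 of 5951 genes (13.3%) were called higher and 890 (15%) lower, and the increases were larger, as given beside the genes below.

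**Figure D3:**
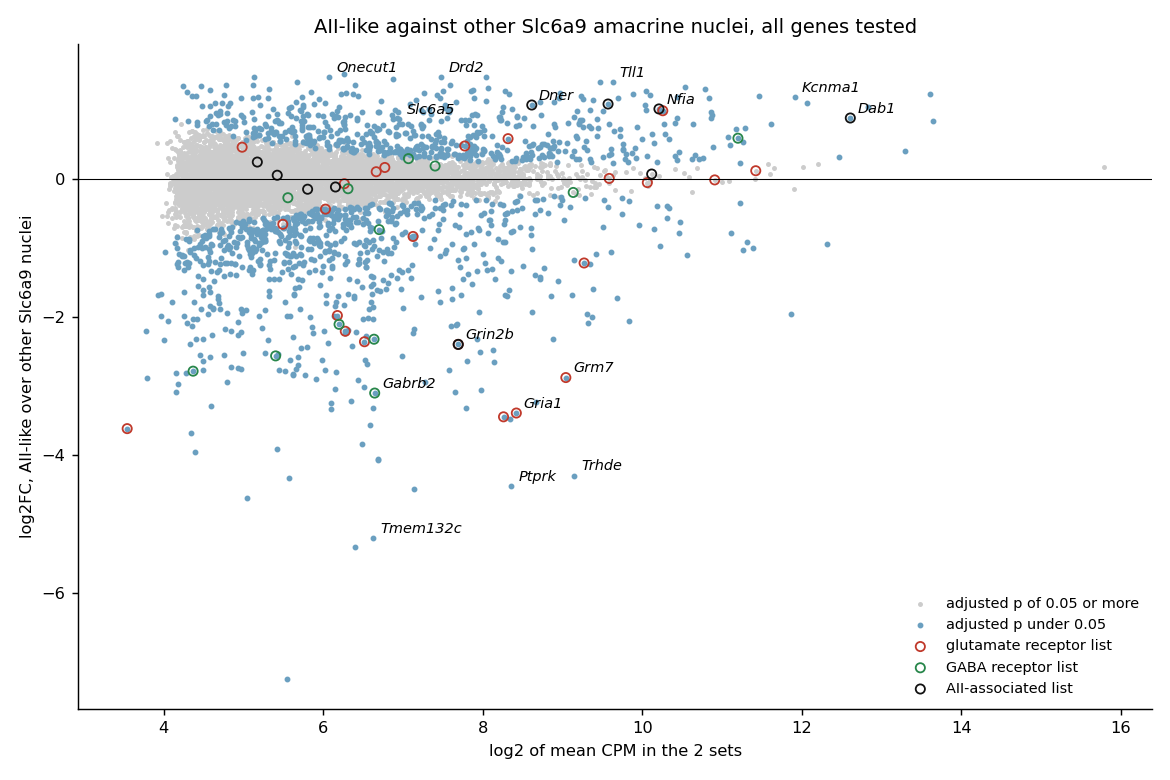
Log2FC of the members over the other Slc6a9 nuclei (y axis) against the log2 of the mean CPM of both sets (x axis) for the 7498 genes tested; blue points have an adjusted p under 0.05, and circles mark genes of the AII-associated, glutamate receptor and GABA receptor lists. No called gene rose by more than 1.51, whereas called decreases reached -7.24.

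Among the increases, Drd2, the D2 dopamine receptor, was at 199, 258 and 313 CPM in the lowest, median and highest library of the members and at 75.4, 99.0 and 131 CPM in the other Slc6a9 nuclei. The libraries did not overlap, and the log2FC was 1.47 ± 0.13 (adjusted p = 1.98e-08). It was 4.53 against the nuclei without Gjd2, Prox1 and C1ql2. Drd2 lies on chromosome 9 at 49340627 to 49408177. After thinning it was present in 46.6% of members, 20.2% of other Slc6a9 nuclei, 1.88% of GABAergic nuclei and 1.23% of rods, and in 24.8% of rod bipolar nuclei.

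Sdk1, the homophilic adhesion molecule sidekick-1, was at 1987, 2053 and 2307 CPM in the members against 655, 897 and 1098 CPM, with no overlap (log2FC 1.33 ± 0.10, adjusted p = 1.9e-09). Rod bipolar nuclei also carried it, in 81.5% of them after thinning against 93.7% of members. Kcnma1, the large-conductance calcium-activated potassium channel, was at 4919, 5369 and 5553 CPM against 1769, 2435 and 3029 CPM, with no overlap (log2FC 1.18 ± 0.09, adjusted p = 3.25e-09). Tll1, a tolloid-like metalloprotease, was at 1033, 1148 and 1213 CPM against 291, 459 and 598 CPM (log2FC 1.39 ± 0.10, adjusted p = 4.99e-10). Against the nuclei without Gjd2, Prox1 and C1ql2, the log2FC was 4.05 for Sdk1, 3.11 for Kcnma1 and 4.76 for Tll1.

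The other genes of the 12 with the smallest adjusted p and a rise of at least 1 were Galnt18 (log2FC 1.40), Plch1 (1.18), Tmem132d (1.20), Pip5k1b (1.26), Pak7 (1.30), Adcy5 (1.27), Apba1 (1.26), Csmd3 (1.19) and Ccsap (1.29), with adjusted p from 5.5e-10 to 3.51e-09. Plch1 and Pip5k1b act in phosphoinositide metabolism, Adcy5 encodes an adenylyl cyclase, Pak7 a p21-activated kinase and Apba1 an adaptor of presynaptic scaffolds. A rise in all 6 libraries was a condition for naming these genes, so that agreement is not a separate result.

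Several glutamate receptor genes were lower. Gria1, the AMPA receptor subunit GluA1, was at 43.1, 48.9 and 87.7 CPM in the lowest, median and highest library of the members and at 513, 561 and 873 CPM in the other Slc6a9 nuclei. No library overlapped, and the difference was 10.5-fold (log2FC -3.39 ± 0.14, adjusted p = 5.21e-13). After thinning it was detected in 7.69% of members, 43.9% of other Slc6a9 nuclei, 50.5% of GABAergic nuclei and 6.97% of rods. The share in the members was thus at the level of the 244 rods deep enough to thin. Unthinned, it was 10.7% in the members and 3.43% in the shallower full set of rods. Gria1 lies on chromosome 11 at 57011387 to 57330244.

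Grm7, the metabotropic receptor mGluR7, was at 82.9, 125 and 148 CPM in the members against 735, 926 and 1159 CPM in the other Slc6a9 nuclei and 1966, 2576 and 2717 CPM in the GABAergic nuclei. The members were lowest in every library (log2FC -2.88 ± 0.12, adjusted p = 5.21e-13 against the other Slc6a9 nuclei). Shisa9, an auxiliary AMPA receptor subunit (log2FC -3.45), and Grm4, another metabotropic receptor (-3.62), also fell, and Grm4 was at 1.52 ± 1.72 against 21.8 ± 2.18 CPM (SD, n = 6). Of the 23 glutamate receptor genes tested of 31 listed, 10 were called lower and 3 higher, with a median log2FC of -0.44 beside a median of all genes of -0.00. The 3 that rose were Gria3 (log2FC 0.98), the AMPA receptor regulator Cacng3 (0.58) and the obligatory NMDA receptor subunit Grin1 (0.47), which were named after their values were seen. With the shallow comparison nuclei left out, Grin1 was at 0.31. GluA1 and GluA3 subunit genes thus moved in opposite directions.

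GABA receptor genes were also low. Gabrb2, a beta subunit of the GABA-A receptor, was at 5.87, 21.6 and 30.5 CPM in the members and at 126, 186 and 205 CPM in the other Slc6a9 nuclei. The libraries did not overlap (log2FC -3.10 ± 0.19, adjusted p = 1.22e-10). Gabrg1 (log2FC -2.79) and Gabra2 (-2.32), further subunits of the receptor, fell as well. Of 12 genes tested, 6 were called lower and 1 higher (Gabrg3, log2FC 0.59, named after its value was seen), with a median of -0.51.

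Genes for glycine handling and reception changed in both directions. Slc6a5, the neuronal glycine transporter GlyT2, was at 127, 155 and 197 CPM in the members and at 55.3, 90.2 and 112 CPM in the other Slc6a9 nuclei. The lowest member library was above the highest of the others (log2FC 0.86 ± 0.14, adjusted p = 0.000102). The glycine receptor alpha subunits Glra2 (46.7 ± 16.6 against 146 ± 30.8 CPM; log2FC -1.55) and Glra3 (152 ± 27.1 against 401 ± 100 CPM; log2FC -1.31) fell, as did the amino acid transporters Slc38a2 (-1.28) and Slc38a1 (-0.44), the latter not called with DESeq2 (adjusted p = 0.226). The shared beta subunit Glrb (log2FC -0.02) and the receptor anchor gephyrin Gphn (-0.03) did not pass the test. Of 9 genes tested of 15 listed, 1 was called higher and 4 lower. Glra1, Glra4 and the glycine enzymes Shmt1, Shmt2, Gldc and Amt had means of 1.90 to 17.4 CPM in the members and were not tested here.

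**Figure D4:**
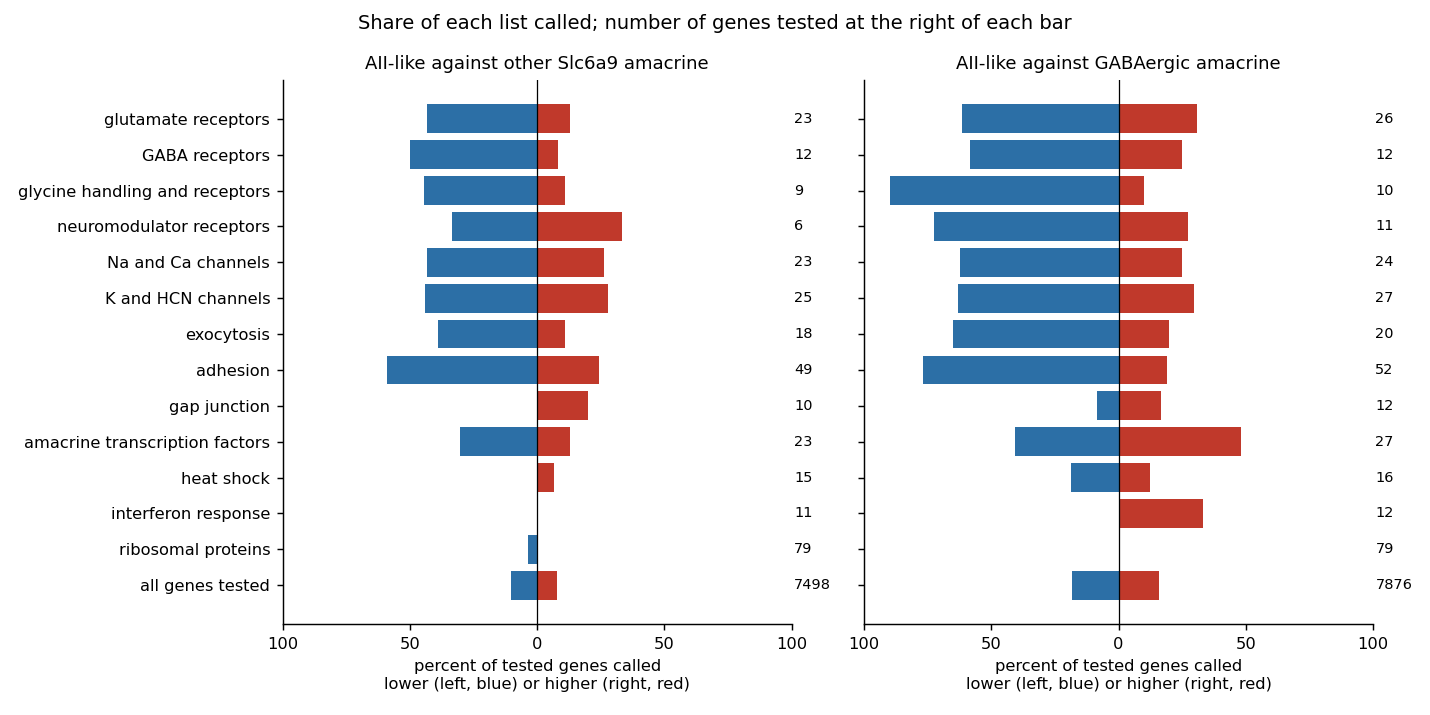
Percent of the tested genes of each list called higher (red, right) or lower (blue, left) in the members against other Slc6a9 amacrine nuclei (left panel) and against GABAergic nuclei (right panel), with the number of genes tested beside each bar. Adhesion genes had 29 of 49 called lower and 12 called higher against the other Slc6a9 nuclei, and ribosomal proteins had 3 of 79 called lower.

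Ion channel lists held changes in both directions. Of 25 potassium and HCN channel genes tested, 7 were called higher and 11 lower, and of 23 sodium and calcium channel genes 6 were higher and 10 lower. The A-type channel partners Kcnip1 (log2FC -3.33) and Kcnip4 (-1.96), the fast delayed rectifier Kcnc2 (-2.14) and the A-type channel Kcnd3 (-1.78) fell. Kcnip4 alone went from 5960 ± 1116 CPM in the other Slc6a9 nuclei to 1510 ± 508 CPM in the members. The R-type calcium channel Cacna1e (-2.76), the auxiliary subunit Cacna2d1 (-2.57), the T-type channel Cacna1i (-1.99) and Fgf13, a sodium channel modulator (-1.62), fell, while another T-type channel, Cacna1h (log2FC 1.03), rose. Among potassium channels, Kcnh1 (0.99), Kcnq3 (0.77) and Kcnh7 (0.72) rose beside Kcnma1. The increases other than Scn1a and Kcnma1 were named after their values were seen.

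Cell adhesion and guidance genes formed the list with the most calls: 29 of 49 tested were lower and 12 were higher, a median log2FC of -0.93. Ntm (-2.31) and Opcml (-3.06), glycolipid-anchored adhesion molecules of the same family, the contactin Cntn3 (-2.80), the Slit receptor Robo2 (-2.77) and the cadherin Cdh10 (-2.63) fell. Lsamp of the same family as Ntm and Opcml rose (0.83), as did the cadherin Cdh12 (1.23), the ephrin receptor Epha7 (1.15), the contactins Cntn6 (0.90) and Cntn4 (0.87) and the teneurin Tenm4 (0.81), all named after their values were seen. Different members of the cadherin and contactin families thus lay on opposite sides.

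Of 18 exocytosis genes tested, 7 were lower, with Unc13c (log2FC -2.17), Syt9 (-1.30), Syt7 (-1.24) and Rims1 (-1.18) the furthest, and 2 were higher, Cplx3 (0.54), a complexin of amacrine and photoreceptor synapses, and Erc2 (0.28), both named after their values were seen. The call of Syt7 was lost with DESeq2 (adjusted p = 0.0790) and without saline replicate 2 or 6 or IL-27 replicate 5 or 10 (0.0560 to 0.106), that of Cplx3 with DESeq2 (0.175), for members with 2 UMIs of Gjd2 and without saline replicate 2 (0.0548), and that of Erc2 with the shallow comparison nuclei left out (0.0825). Snap25, a SNARE protein, was at 837 ± 58 against 1435 ± 129 CPM (-0.72). The muscarinic receptors Chrm2 (-2.77) and Chrm3 (-1.40) fell and the opioid receptor Oprm1 (0.54) rose beside Drd2. Of 10 gap junction genes tested, the scaffold Tjp1 (0.61) and cingulin Cgn (0.92) rose and the others did not pass the test.

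Other genes in the set of 12 with the smallest adjusted p and a fall of at least 1 were Cpne8 (log2FC -3.32), Dclk1 (-2.94), Trhde (-4.30), Col25a1 (-3.49), Tmem132c (-5.20), A930001A20Rik (-4.05), Ptprk (-4.45) and Prkca (-1.93). Trhde, which degrades thyrotropin-releasing hormone, was at 5.71, 59.8 and 99.2 CPM in the members and at 720, 1100 and 1298 CPM in the other Slc6a9 nuclei. Ptprk, a receptor tyrosine phosphatase, was at 5.87, 24.0 and 66.6 CPM against 568, 620 and 724 CPM. Neither gene's libraries overlapped. Tmem132c had no UMI in at least 1 member library.

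Transcription factors listed for amacrine types differed by gene. Ebf1 (150 ± 56.6 against 383 ± 94.6 CPM; log2FC -1.32) and Tcf4 (-0.42) fell, as did Meis2 (-1.67), Tshz2 (-1.35) and Zfhx3 (-1.12, but adjusted p = 0.0552 for members with 2 UMIs of Gjd2), whereas Neurod4 (1.08) and Esrrg (0.99), named after their values were seen, rose with Nfia. Neurod2 (-0.26) and Ppp1r17 (-0.22), which were on the list for other glycinergic types, did not pass the test. Neurod6, Lhx9, Cck and Penk were at means of 0.317 to 3.67 CPM and were not tested. Ebf3 was at 70.4 ± 16 and 75 ± 28.6 CPM (log2FC -0.01, adjusted p = 0.987), and its direction depended on the nuclei: it was -1.24 (adjusted p = 0.00769) for the members with Tfap2a or Tfap2b and 1.30 (adjusted p = 0.0019) against the comparison nuclei without Gjd2, Prox1 and C1ql2. Nfib changed in the same way, with -1.43 (adjusted p = 0.00909) and 1.40 (adjusted p = 0.000776).

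Onecut1 and Calb1 (calbindin) were on the list of horizontal cell markers and were higher in the members. Of the 5 genes of that list tested, 2 were called higher and 1 was called lower. Onecut1, a transcription factor, was at 76.1, 99.4 and 116 CPM against 23.4, 33.8 and 55.8 CPM (log2FC 1.46 ± 0.18, adjusted p = 2.55e-06), and Calb1 at 136, 172 and 202 CPM against 13.4, 72.6 and 96.6 CPM (1.45 ± 0.18, adjusted p = 1.71e-06). Neither gene's libraries overlapped. Lhx1, which defines horizontal cells, had no UMI in any member. Stress and translation genes showed little: Hspa12a (log2FC 0.76) was the only call among 15 heat shock genes tested, 0 of 11 interferon response genes were called by edgeR or DESeq2 (2 had an unadjusted edgeR p under 0.05), and 3 of 79 ribosomal protein genes were lower (Rpl18, Rpl19 and Rps10), with a median of -0.18. None of these 3 was called with DESeq2 (adjusted p from 0.194 to 0.429) or with the shallow comparison nuclei left out (0.157 to 0.279).

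Against the GABAergic nuclei, 1255 of 7876 genes (15.9%) were called higher in the members and 1437 (18.2%) lower. The same member sums entered this comparison and the one above, so the values are given side by side without an overlap. Of the 12 AII-associated genes tested, 6 were higher, namely Dab1, Nfia (log2FC 3.43), Nfix (2.25), Nfib (2.09), Scn1a (1.66) and Dner (1.03), and 3 were lower, namely Drd1 (-3.11), Grin2b (-2.21) and Slc32a1 (-0.74). Drd2 was at 7.04 ± 3.88 CPM in the GABAergic nuclei (log2FC 5.17). The 4 tested factors on the list for other glycinergic types were all higher in the members: Neurod2 (5.26), Ebf3 (3.73), Ebf1 (2.30) and Tcf4 (2.02). Members at the edge of the rule bore on some of these values: Nfib was at 0.74 (adjusted p = 0.309) for the members with Tfap2a or Tfap2b, and Ebf1 at 0.52 (adjusted p = 0.364) for those with 2 UMIs of Gjd2.

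The 12 genes with the smallest adjusted p among increases over the GABAergic nuclei were Tmtc2 (log2FC 3.43), Zfp804a (3.22), Vwc2l (3.47), Mcu (2.99), Ccsap (3.99), Kcnh1 (4.81), Gabrg3 (2.78), Pde8b (3.67), Shisa6 (4.22), Dync1i1 (2.98), Rnf152 (3.91) and Dab1. Kcnh1 encodes an ether-a-go-go potassium channel, Mcu the mitochondrial calcium uniporter, Pde8b a cyclic AMP phosphodiesterase and Shisa6 an AMPA receptor auxiliary subunit. Among the 12 decreases were Grm7 (-4.34), Tenm3 (-4.87), Inpp4b (-3.47), Kcnh5 (-4.02), Slit2 (-5.44), Ntm (-3.21), Robo2 (-4.45), Maml2 (-4.33), Nav3 (-3.86), Nav2 (-4.49) and Unc5c (-3.96). Slit2, Robo2 and Unc5c act in axon guidance.

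By list, glutamate receptor genes had 16 of 26 lower and 8 higher against the GABAergic nuclei, GABA receptor genes 7 of 12 lower and 3 higher, and adhesion genes 40 of 52 lower and 10 higher. Cnih3 (-4.55) and Grik4 (-4.35) were the furthest glutamate receptor genes, and Gabrb1 (-4.06) the furthest GABA receptor gene. Among neuromodulator receptors, 8 of 11 were lower, led by the tachykinin receptors Tacr1 (-5.86) and Tacr3 (-4.81) and the serotonin receptor Htr2c (-4.71), and 3 were higher. Of 10 glycine genes, Slc6a5 (1.69) was higher and 9 were lower, among them Glra1 (-4.25), at 3.92 ± 4.06 against 83.0 ± 30.5 CPM. The transcription factors Maf (-6.75), Meis2 (-5.28) and Zfhx3 (-4.30) were the furthest down among 27 tested, of which 11 were lower and 13 higher. All 5 immediate early genes tested were lower, with Nr4a2 (-3.48) the furthest.

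The effect of IL-27 on the members was tested over the 3 IL-27 and 3 saline libraries. IL-27 is a cytokine that signals through Il27ra and the shared subunit Il6st (gp130) to JAK kinases and transcription factors of the STAT family. Of 6445 genes tested with edgeR, 0 (0%) were called higher and 0 (0%) lower. Without adjustment, 266 genes (4.13%) had a p under 0.05, of which 145 were higher and 121 lower. DESeq2 also called 0 genes, with 55 at an unadjusted p under 0.05. The 3 IL-27 libraries all lay above the 3 saline libraries for 300 genes (4.65%) and all below for 329 (5.1%).

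The smallest adjusted p was that of Pcdh9, a protocadherin adhesion molecule on chromosome 14 at 93013410 to 93890679. It was at 129, 85.3 and 196 CPM in saline replicates 1, 2 and 6 and at 326, 499 and 297 CPM in IL-27 replicates 4, 5 and 10. The IL-27 libraries were all above the saline libraries, but the adjusted p of 0.0725 missed the threshold (log2FC 1.45 ± 0.23). The gene passed it without the nuclei that Scrublet scored as doublets (adjusted p = 0.000112), without saline replicate 1 (adjusted p = 0.0422) and without saline replicate 2 (adjusted p = 0.0301), among other settings. The rise was smaller and not called when nuclei more than 2 median absolute deviations away in depth were dropped (log2FC 0.82, adjusted p = 0.996). It was also smaller and not called without IL-27 replicate 5 (1.19, adjusted p = 0.535). For the members with 2 UMIs of Gjd2 the sign of Pcdh9 changed (-0.26, adjusted p = 0.996). With DESeq2 it was far from the threshold at a log2FC of 1.46. Pcdh9 was at 1010 ± 317 CPM in the other Slc6a9 nuclei and 5997 ± 572 CPM in the GABAergic nuclei, so the members were low for it in both groups.

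The other genes with the smallest unadjusted p and no overlap between groups are given as values. Runx1t1, a transcriptional corepressor, was at 440, 514 and 542 CPM in saline and 754, 624 and 652 CPM in IL-27 libraries (log2FC 0.46), and Tenm4 at 598, 694 and 642 against 876, 774 and 861 CPM (0.40). Samsn1, a signalling adaptor of blood cells, was at 24.7, 24.4 and 56.8 against 8.08, 11.6 and 7.83 CPM (-1.90), Shisa9 at 53.3, 87.7 and 62.6 against 26.9, 23.1 and 39.1 CPM (-1.16), and Gm50100 at 73.8 ± 14.4 against 35.8 ± 6.99 CPM (SD, n = 3; -0.99). Their adjusted p was 0.999 each.

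**Figure D5:**
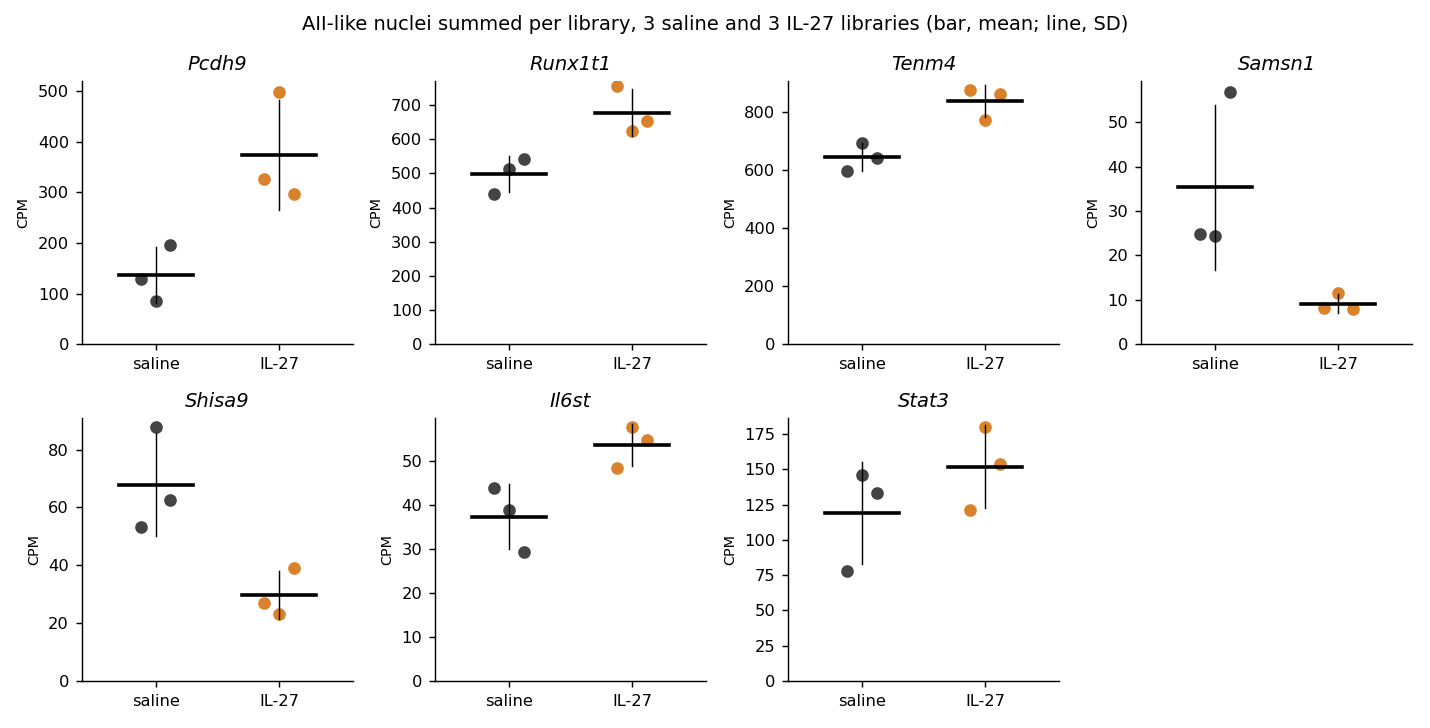
CPM of 7 genes in the members summed per library, for 3 saline (grey) and 3 IL-27 (orange) libraries; the bar is the mean and the line the SD. Pcdh9 lay between 85.3 and 196 CPM in saline and between 297 and 499 CPM in IL-27 libraries, while Stat3 overlapped between the groups, and no gene shown passed the adjusted threshold.

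The receptor of IL-27 was not detectable in the members. Il27ra had no UMI in 458 members, which allows a share of up to 0.802% of nuclei with a UMI, and none in the other Slc6a9, GABAergic and Muller nuclei. Il6st was at 43.8, 39.0 and 29.4 CPM in saline and 48.5, 57.8 and 54.8 CPM in IL-27 libraries. All IL-27 libraries were higher, but the gene did not pass the test (log2FC 0.54 ± 0.27, adjusted p = 0.999). After thinning, Il6st was present in 12.6% of members (interval 9.60 to 16.1) and 12.3% of rods (interval 8.45 to 17.1). Its share in the members was thus at the level of the 244 rods deep enough to thin. In thinned Muller nuclei the share was 27.5%. Unthinned, it was 20.7% in the members and 10.0% in the shallower full set of rods. Stat3 was at 78.1, 146 and 133 against 121, 180 and 154 CPM (log2FC 0.39), with overlap between the groups. Jak1 (0.18), Jak2 (0.25), Tyk2 (0.14), Stat2 (0.28), Irf9 (0.01), Pias1 (0.17), Stat5b (-0.27) and Ptpn2 (-0.17) were other genes tested, and Stat5a, Socs1, Socs3 and Irf1 were too low.

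Of these 11 IL-27 pathway genes, 9 had a positive log2FC, with a median of 0.18 beside 0.00 for all genes, and 0 were called (0 had an unadjusted p under 0.05). Interferon response genes had 7 of 11 positive (median 0.02), heat shock genes 12 of 15 negative (median -0.19) and ribosomal protein genes 53 of 76 negative (median -0.14). All 10 rod markers tested were negative, with a median of -0.41, and their summed level was 735 to 1238 CPM in saline and 518 to 950 CPM in IL-27 libraries. Their part in the other values was not tested. In simulated data of the same design the test recovered 193 of 198 genes changed by 1.5 on the log2 scale. That simulation gave every gene the same spread and changed only well-counted genes. It therefore does not measure how many real changes the test would miss here.

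Whether IL-27 acted differently in the members and in the other Slc6a9 nuclei was tested as an interaction over 8582 genes. The edgeR test called 0 genes higher (0%) and 0 lower (0%), with 162 and 166 at an unadjusted p under 0.05, and DESeq2 called 0, with 30 at an unadjusted p under 0.05. The smallest adjusted p was 0.564, with Meis2 (difference of log2FC -1.65), Shisa9 (-1.31) and Chrm2 (-3.14) on the lower side and Cp, ceruloplasmin (1.71), Schip1 (1.13) and Chn2 (1.16) on the higher side.

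The number of members did not differ detectably between the groups. Members made up 35.4, 35.6 and 37.4% of Slc6a9 amacrine nuclei in saline and 37.1, 34.4 and 32.7% in IL-27 libraries, that is 36.1 ± 1.12% and 34.7 ± 2.24% (SD, n = 3 each). The groups overlapped, and the difference of -1.38 percentage points had an exact two-sided permutation p = 0.4. The other nuclei counted here had to hold Tfap2a or Tfap2b, whereas members did not. With members held to the same demand, the means were 32.7 ± 1.63% and 31.7 ± 2.64%. That difference was -0.959 percentage points (exact permutation p = 0.6). Of all nuclei kept, members were 0.819, 0.778 and 1.04% in saline and 0.766, 0.791 and 0.691% in IL-27 libraries, a difference of -0.130 percentage points (exact permutation p = 0.2). With 3 libraries a group, no exact permutation p can be under 0.1, and in both comparisons the members depend on the depth of each nucleus through the UMIs the rule requires.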

How the data were processed

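The deposited values are UMI counts per gene and barcode, which the authors made with Cell Ranger (9.0.1 in the submitters' processing notes, while the matrix headers name another version) and analysed with Seurat 5.2.1. The counts are not normalized, and the genome build is not given in the sources used here. Of 32285 gene identifiers, 32158 (99.6%) were found in GENCODE M21, from which positions were taken. Barcodes were kept at the limits given in the report.

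The members, comparison sets and gene lists were chosen with earlier results of these data known, so no list is independent evidence. Counts were summed per library and set. The two-sided quasi-likelihood test of edgeR 4.0.16 (R 4.3.3) was run on the sums after filterByExpr (minimum count 10) and TMM scaling, and p-values were adjusted over all genes tested (Benjamini-Hochberg, threshold 0.05). The library was the block where 2 sets of the same libraries were compared. Genes of a set's rule, and Tfap2a and Tfap2b, were given no test in the 2 comparisons between sets of nuclei. They were not taken out of the IL-27 and interaction tests. There 3 of the 4 required genes were tested and 0 were called. CPM use the total of each sum. Where nothing says that libraries came from separate mice, p-values measure the spread between these libraries.

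Genes named are all of the AII-associated, other glycinergic, glycine and IL-27 pathway lists. Up to 12 per direction were added by the smallest adjusted p, with a log2FC of at least 1 and at least 20 CPM in the higher set. The same direction in all 6 libraries was also required of these 12. Up to 4 called genes of each other list were named too. Under IL-27 the genes named are the 3 per direction with the smallest unadjusted p and no overlap. Others are named as such. Some genes the rule selects are not reported here, but are counted in the totals.

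Doublets were not removed in the main sums: Scrublet (scanpy 1.11.5, expected rate 8%) marked 18 members, and leaving its calls out was an alternative, with DESeq2 1.42.0, other filters, depth limits, stricter rules and each library left out. In simulated data with genes changed by 1.5 on the log2 scale, the test recovered 200 of 200 with 6 false calls among 7682 genes for members against other Slc6a9 nuclei, 199 of 200 with 7 false among 7877 against GABAergic nuclei, 193 of 198 with 11 false among 6546 for IL-27, and 155 of 200 with 11 false among 8451 for the interaction. The simulated counts had the same spread for every gene, and only well-counted genes were changed, so these shares do not carry over to the real data. Other tools were Python 3.11.15, numpy 2.4.6, scipy 1.17.1, pandas 2.3.3 and matplotlib 3.10.9.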

Additional observations from a re-analysis of the deposited data

Results flagged for a closer look

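The values of 3 measures stood apart from the other 5 libraries by Dixon's criterion, among 33 measures tested over the 6 libraries; chance marks about 1 in 20 of such measures. The share of members among all nuclei kept was 1.04% in saline replicate 6, against 0.691 to 0.819% elsewhere, and without that library the IL-27 minus saline difference was -0.0493 percentage points (exact permutation p = 0.4). Cacna1d was at 1053 CPM in the members of saline replicate 6, against 1117 to 1133 CPM elsewhere. Ganglion cell markers summed to 169 CPM in the members of IL-27 replicate 5, against 53.6 to 80.3 CPM elsewhere.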

How the results depend on the processing

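Against the other Slc6a9 nuclei, DESeq2 called 319 genes higher and 476 lower, and its calls covered 795 of the 1362 in the same direction. Limiting the comparison nuclei by depth gave 416 and 595, and leaving out each library gave 479 to 572 and 636 to 743. Ebf3 and Nfib changed sign against the comparison nuclei without Gjd2, Prox1 or C1ql2, with log2FC of 1.30 and 1.40. Against the GABAergic nuclei, DESeq2 called 729 genes higher and a minimum of 30 counts left 788 higher, while 2260 were lower with no filter; leaving out each library gave 1045 to 1194 and 1359 to 1435. Without the replicate block (the library), 563 genes were higher and 714 lower in the first comparison and 1225 and 1419 in the second. IL-27 and saline libraries share no replicate numbers, so no paired analysis of treatment was possible.

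For IL-27 in the members, where 0 genes were called, 5 were higher and 5 lower with no filter on low counts. Pcdh9 was called higher under 1% mitochondrial counts, without Scrublet doublets (1 gene each) and, with Kirrel3 lower, for members with Tfap2a or Tfap2b (1 gene in each direction). Gpc6 was lower (1 gene) for members with 2 UMIs of Gjd2. Leaving out each library gave 0 to 2 higher and 0 to 2 lower: Pcdh9 and Galntl6 higher and Cngb3 and Pcdh15 lower without saline replicate 1, and Pcdh9 higher and Zfp804b lower without saline replicate 2. The interaction gave 6 higher and 13 lower with no filter, and 0 to 1 and 0 to 2 with each library left out: Luzp2 and Cntn5 lower without saline replicate 2, Pcdh9 higher without saline replicate 6 and Cdh8 lower without IL-27 replicate 5. The cause of these changes was not tested. The difference in the share of Slc6a9 nuclei was -2.57 to -0.341 percentage points with each library left out, and 0.0103 for members with 2 UMIs of Gjd2 (exact permutation p = 1), and that in the share of all nuclei was -0.180 to -0.0493. Genes below the count filter were not tested.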
